A study of Mus musculus with 8 samples.

Results

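Por, Cyb5a, Cyp1a2 and Cyp2e1 were each represented by a window of the mouse genome (build mm9), and the binding sites of the transcription factor Foxa2 and of the histone deacetylase Hdac3 that fell in these windows were described. The windows ran from 136.09 to 136.24 Mb on chromosome 5 for Por, from 84.97 to 85.1 Mb on chromosome 18 for Cyb5a, from 57.46 to 57.6 Mb on chromosome 9 for Cyp1a2 and from 147.89 to 148.02 Mb on chromosome 7 for Cyp2e1. Of the 28196 sites in the 4 deposited lists, 48 overlapped a window. The sites came from chromatin immunoprecipitation with sequencing (ChIP-seq) of snap-frozen liver of wild-type mice of the inbred strain C57BL/6, aged 3 months (young) or 21 months (old), with no treatment given in the labels and the sex not given in the sources used here. Each protein and age had 2 libraries and 1 list of sites, so the 4 groups were Foxa2 at 3 months, Foxa2 at 21 months, Hdac3 at 3 months and Hdac3 at 21 months. The lists carry no replicate error and no read depth, so no difference between ages was tested. The chromatin came from whole liver, so a site bound in more cells and a site bound more often in each cell cannot be told apart. The windows were chosen by position with earlier results of these lists known, and no mm9 annotation was used here, so whether a site lay in an exon, an intron or a promoter was not determined.

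The 4 genes encode parts of the oxidation system of the endoplasmic reticulum of hepatocytes. Por, the cytochrome P450 reductase, passes electrons from NADPH to the P450 enzymes, and Cyb5a, cytochrome b5, is a small haem protein that hands electrons to some P450s and to lipid desaturases. Cyp1a2 and Cyp2e1 are P450 enzymes that are abundant in the hepatocytes around the central vein: Cyp1a2 oxidises caffeine and aromatic amines and is induced through the aryl hydrocarbon receptor, and Cyp2e1 oxidises ethanol, acetone and paracetamol. Foxa2 is a forkhead factor that can bind closed chromatin at liver enhancers, and Hdac3 removes acetyl groups from histones as part of nuclear receptor corepressor complexes. Protein-coding genes were put in order of start position in the RefSeq gene table of another build, GRCm38.p6. Those before and after were Rhbdd2 and Tmem120a for Por, Gm17266 and Fbxo15 for Cyb5a, Csk and Cyp1a1 for Cyp1a2, and Olfr541 and Syce1 for Cyp2e1. Cyp1a1 encodes the other P450 of the Cyp1a subfamily, so a site in the Cyp1a2 window cannot be assigned to Cyp1a2 rather than to Cyp1a1. Sites in the other windows were likewise not assigned to a gene.

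The bases before the start of 3 of the genes are shown because forkhead factors recognise short sequences of a known kind. They are the 250 bases upstream of the RefSeq start in GRCm38.p6, printed 5′ to 3′ on the gene's strand, and their positions cannot be set against the mm9 positions of the sites below. Capitals mark a match to any of 4 forkhead core sequences, namely TGTTTAC, the same with T as its last base (TGTTTAT), and these with A as the second base (TATTTAC for the first of them and TATTTAT for the other), searched on both strands.
Por, chr5:135688895-135689144 (+ strand): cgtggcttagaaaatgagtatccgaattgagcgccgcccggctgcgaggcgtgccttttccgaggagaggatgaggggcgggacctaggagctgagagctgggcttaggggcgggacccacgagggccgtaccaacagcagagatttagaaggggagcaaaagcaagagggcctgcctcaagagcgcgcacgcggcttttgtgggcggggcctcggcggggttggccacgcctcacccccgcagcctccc
Cyp1a2, chr9:57683656-57683905 (- strand): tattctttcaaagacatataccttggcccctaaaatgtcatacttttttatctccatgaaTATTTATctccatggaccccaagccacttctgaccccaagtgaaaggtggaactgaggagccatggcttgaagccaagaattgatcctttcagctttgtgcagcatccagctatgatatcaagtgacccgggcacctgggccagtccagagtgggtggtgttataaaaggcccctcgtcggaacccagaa
Cyp2e1, chr7:140763569-140763818 (+ strand): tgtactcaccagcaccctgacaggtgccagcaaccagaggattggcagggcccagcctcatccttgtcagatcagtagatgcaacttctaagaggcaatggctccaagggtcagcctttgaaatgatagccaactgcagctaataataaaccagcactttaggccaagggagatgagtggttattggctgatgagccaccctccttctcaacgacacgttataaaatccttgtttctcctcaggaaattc
The Cyp1a2 sequence held 1 match, TATTTAT, from 190 to 184 bases before the start. The Por and Cyp2e1 sequences held none, which says only that these letters are not in these 250 bases. The Cyb5a sequence is not shown, and whether it held a match is not reported here. Of the 32851 upstream sequences of this length in the table, 13.6% held at least 1 match. The Por sequence had 65.6% G and C, against 47.2% for Cyp1a2, 48.8% for Cyp2e1 and a median of 52.4% over the table.

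Foxa2 was listed in all 4 windows at 21 months and in all 4 at 3 months, with more sites in the old list each time. Por had 2 young and 10 old sites, Cyb5a 8 and 11, Cyp1a2 1 and 4, and Cyp2e1 3 and 5, which made 14 young and 30 old sites. These were 0.212% of the young list (95% exact binomial interval 0.116 to 0.355, for counting error only) and 0.234% of the old list (0.158 to 0.334). As shares of their lists the counts of the 2 ages were thus close, since the whole old list, with 12834 sites, was longer than the young one, with 6604. Old sites covered 4230 bp of the windows and young sites 1049 bp. The whole old list also held wider sites, with a median of 100 bp against 40 bp in the young list. Hdac3 had 4 sites at 3 months, all in the Por window, and 0 at 21 months. These were 0.0686% of the 5828 young Hdac3 sites (0.0187 to 0.176) and 0% of the 2930 old ones (0 to 0.126), the old Hdac3 list being the shorter. All these intervals treat sites as independent draws, so they do not test a difference between the ages.

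**Figure D1:**
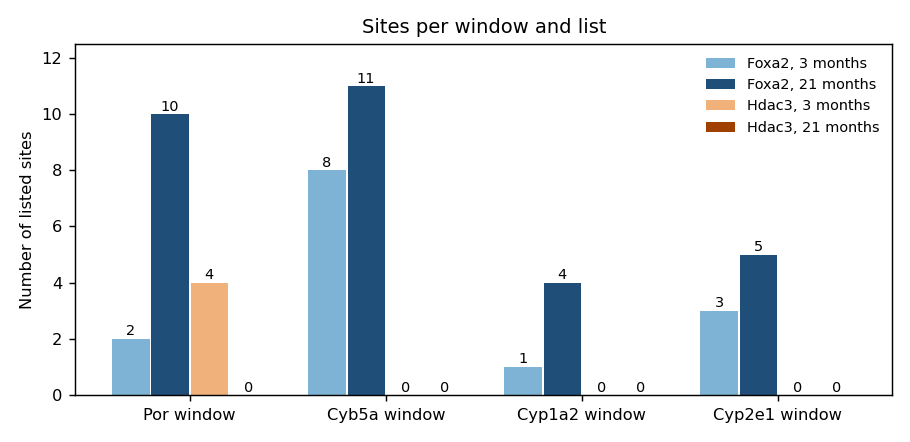
Number of listed sites (vertical axis) in each window for the 4 lists, 1 bar per list. The old Foxa2 bar is the tallest in each window, from 4 in the Cyp1a2 window to 11 in the Cyb5a window, and the young Hdac3 bar is above 0 in the Por window alone.

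Set beside equal stretches of the genome, the Cyb5a window was dense in Foxa2 sites in both full lists. The Por window was so in the full old list. Of 19804 bins of 130 kb, 0.0505% held at least the 11 old sites of the Cyb5a window and 0.0757% held at least its 8 young sites. Of 17158 bins of 150 kb, 0.181% held at least the 10 old sites of the Por window, whereas 7.74% held at least its 2 young sites. In the full old list the Cyp2e1 and Cyp1a2 windows were less crowded than these. Of the bins of 130 kb, 2.29% held at least the 5 old sites of the Cyp2e1 window. At least its 3 young sites were held by 2.26%, a smaller share than for the young sites of the Por window. Of bins of 140 kb, 4.72% held at least the 4 old sites of the Cyp1a2 window and 23.8% at least its 1 young site. All these counts are of the full lists, and the bins were laid without regard to genes, whereas the windows stand for named genes. The windows were picked with these counts known, so the percentages describe them and support nothing.

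How far the old list exceeded the young one depended on the q-value asked for, and differently in each window. A q-value is in general a p-value adjusted for many tests, lower for stronger evidence, and those here are the authors' own for each site. Por kept 2 young sites at each limit, while its old sites went from 10 at the full list and at a q of at most 0.1 to 5 at 0.05 and 2 at 0.01, equal to the young count. In the Cyb5a window the order turned: there were 7 old against 8 young sites at 0.1 and 6 against 7 at 0.05, but 4 against 3 at 0.01. Cyp1a2 had 2 old sites at each of the 3 limits, against 1, 1 and 0 young ones. Cyp2e1 had 5, 4 and 3 old sites against 3, 2 and 2 young ones. The whole lists were also cut unequally: a q of at most 0.05 kept 5685 young sites (86.1%) and 7059 old ones (55.0%). At 0.01 it kept 21.1% of the young and 30.8% of the old list. When the old list was shortened to the 6604 sites with the lowest q, the length of the young list, the 4 windows held 17 old against 14 young sites, and Cyb5a 6 against 8.

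**Figure D2:**
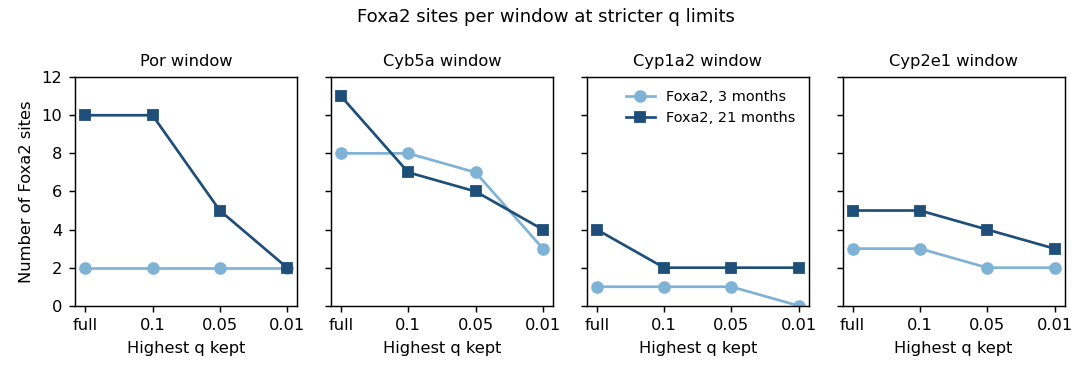
Number of Foxa2 sites (vertical axis) in each window for the full lists and with the highest q kept at 0.1, 0.05 and 0.01 (horizontal axis), circles for 3 months and squares for 21 months. The Por lines meet at 2 sites at 0.01, and the Cyb5a lines cross, with 7 old against 8 young sites at 0.1.

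Over the 4 windows, 9 young Foxa2 sites overlapped an old one by at least 1 bp, 9 of 14 or 64.3% (95% exact binomial interval 35.1 to 87.2), where 40.7% of the whole young list did. Counted in the old list, 9 of 30 sites, or 30%, overlapped a young one (14.7 to 49.4), where 21.0% of the whole old list did. Both intervals include the share of the whole list, and neighbouring sites are not independent of each other. The 35 separate places with Foxa2 were thus 9 of both ages, 21 of the old list only and 5 of the young list only. Among the 9 old sites that were also in the young list, 8 had a q of at most 0.01, against 3 of the 21 old-only sites. Over the whole series 74.5% of the old sites also in the young list and 19.2% of the old-only sites had such a q. Of the old-only sites 13, or 61.9%, had a q above 0.05, and of all 10144 old-only sites in the series 54.7% did.

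**Figure D3:**
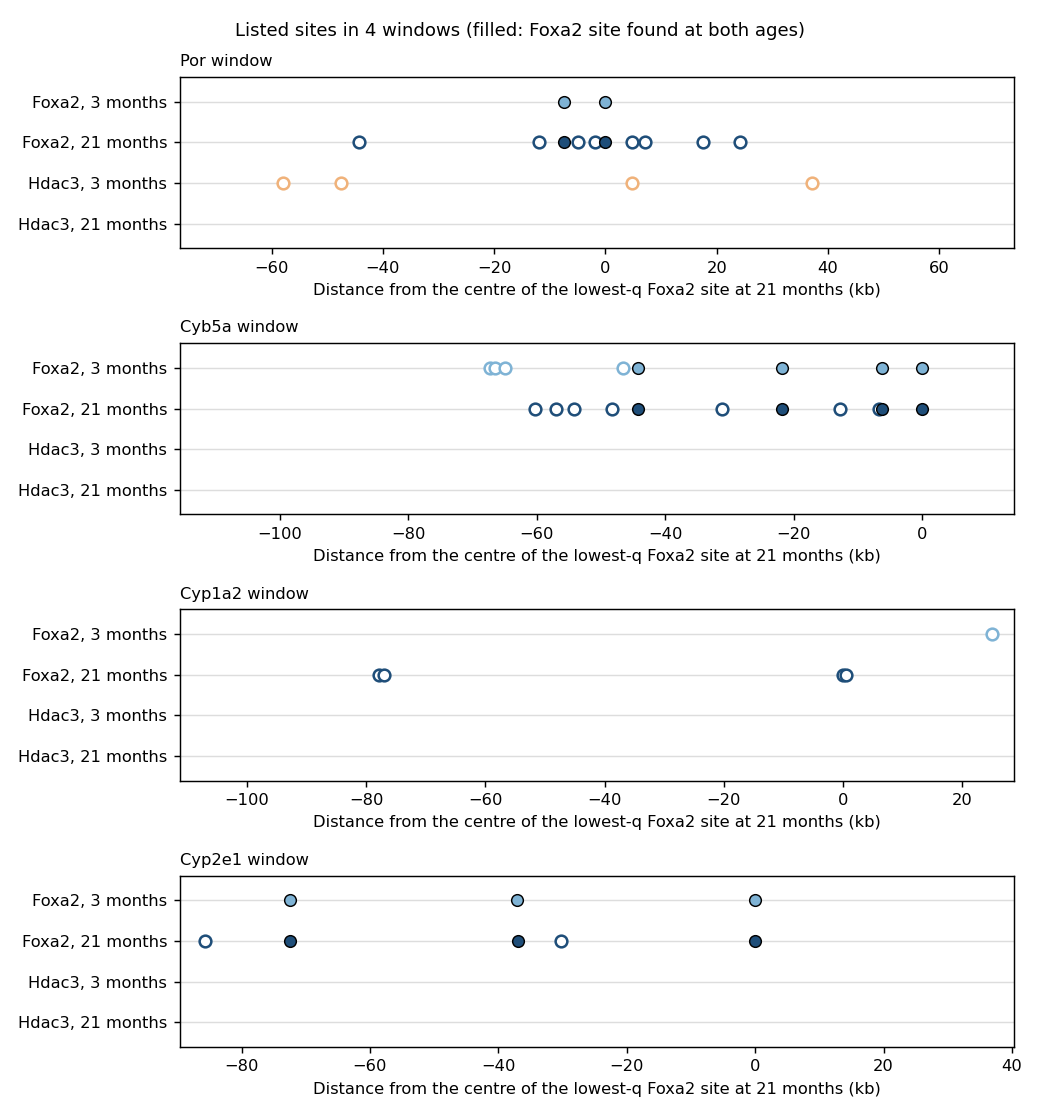
Position of each listed site as distance in kb from the centre of the old Foxa2 site with the lowest q in that window (horizontal axis), 1 row per list, with filled points for Foxa2 sites found at both ages. Filled points stand above each other at 2 places in the Por window, 4 in the Cyb5a window and 3 in the Cyp2e1 window, and at 0 in the Cyp1a2 window.

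Both young Foxa2 sites of the Por window lay inside old ones. The first, chr5:136158961-136159067 in the young list, had an authors' enrichment of 22.7 and a q of 0.000581, and its old counterpart, chr5:136158959-136159106, an enrichment of 60.5 and a q of 0.000542. Positions are given as the lists give them, and the enrichment is the authors' ratio per site, whose reference is not given. The second, chr5:136166447-136166546, had an enrichment of 7.56 and a q of 0.00519, and its old counterpart, chr5:136166405-136166618, an enrichment of 21.5 and a q of 1.4e-06, the lowest q of the window. So the 2 old Por sites with the lowest q were those that the young list held too.

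The 8 other old sites of the Por window had higher q-values. Their q ran from 0.0111 to 0.0958, their enrichment from 11.8 to 52.2 and their width from 58 to 113 bp. They lay 1828 to 36695 bp from the nearest young Foxa2 site. Most of the window's old sites stood close together: 7 of the 10 lay between 136154614 and 136173703, a stretch of 19.1 kb, with gaps of 1786 to 4653 bp, and both sites of the 2 ages were among these 7. This run, joined wherever a gap was at most 10 kb, was picked out after its values were seen.

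The 4 young Hdac3 sites of the Por window were 1 to 52 bp wide, against a median of 26 bp for their list, and had q-values between 0.0813 and 0.11. The site chr5:136108498-136108549 was 52 bp wide, with an enrichment of 18.8 and a q of 0.11. The site chr5:136118968-136118971 was 4 bp wide, with an enrichment of 1107 and a q of 0.0832. The site chr5:136203583-136203587 was 5 bp wide, with an enrichment of 342 and a q of 0.0813. The fourth was a single position, 136171250, with an enrichment of 9.40 and a q of 0.0813. Thus 3 of the 4 were under 30 bp wide, as were 56.3% of the whole young Hdac3 list, and the high ratios belonged to the sites of 4 and 5 bp.

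None of the 4 Hdac3 sites overlapped a Foxa2 site, where 6.04% of all young Hdac3 sites did. The single position at 136171250 lay 21 bp from the old-only Foxa2 site chr5:136171272-136171371, which had an enrichment of 26.9 and a q of 0.073 and is named, after its values were seen, for this distance. The Hdac3 position lay 4703 bp from the nearest young Foxa2 site. The others lay 3214, 12791 and 13636 bp from the nearest old Foxa2 site and 37036 to 50411 bp from the nearest young one. With 2 of 4 sites within 10 kb of a Foxa2 site of either age, where 24.7% of all young Hdac3 sites were, the number is too small to set apart from the list. Of 150 kb bins, 0.606% held at least 4 young Hdac3 sites. A q of 0.05 or lower was given to 105 sites, or 1.80%, of the whole young list and to 0 of the 4 Por sites. All 4 had a q below the list's median of 0.129, and 3 of them ranked 206, 210 and 332 by q among its 5828 sites.

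No Hdac3 site of either age was listed in the Cyb5a, Cyp1a2 and Cyp2e1 windows, and none of the old list in the Por window. Such gaps were common. At least 1 young Hdac3 site was held by 21.1% of 130 kb bins and 22.4% of 140 kb bins, and at least 1 old one by 11.6% of 130 kb, 12.4% of 140 kb and 13.2% of 150 kb bins. From any Foxa2 site of these 3 windows, the nearest young Hdac3 site was 87998 bp away and the nearest old one 222220 bp, in both cases from an old Foxa2 site of the Cyp2e1 window.

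**Figure D4:**
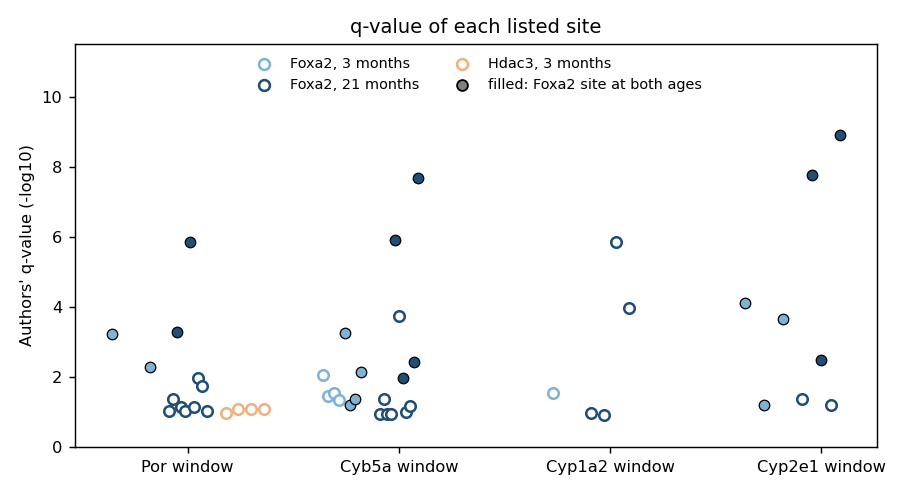
The authors' q-value of each listed site as -log10 (vertical axis) by window, 1 point per site, with filled points for Foxa2 sites found at both ages. The lowest q of the old list belongs to a filled point in the Por, Cyb5a and Cyp2e1 windows and to an open one in the Cyp1a2 window, and the young Hdac3 points of the Por window lie between q of 0.0813 and 0.11.

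The Cyb5a window had the most sites of the 4 in each Foxa2 list, and 4 of its 8 young and 4 of its 11 old sites were shared. The shared site with the lowest q in the old list was chr18:85085533-85085732, with an enrichment of 41.2 and a q of 2.13e-08. In the young list it was drawn at chr18:85085566-85085703, with an enrichment of 7.46 and a q of 0.00752. The young list had its lowest q in this window at another shared site, chr18:85041368-85041484, with an enrichment of 30.9 and a q of 0.00056, and the old list drew that one at chr18:85041311-85041535, with an enrichment of 64.4 and a q of 1.25e-06. The 2 lists thus put different sites first.

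The 2 remaining shared Cyb5a sites had high q-values in the young list. The young site chr18:85063824-85063876 had an enrichment of 5.27 and a q of 0.0647, and the old one, chr18:85063750-85063904, an enrichment of 36.8 and a q of 0.0111. The young site chr18:85079450-85079455 was 6 bp wide, with an enrichment of 9.21 and a q of 0.0443. It lay in an old site of 423 bp, chr18:85079214-85079636, with an enrichment of 8.14 and a q of 0.00378. This last pair was the only one of the 9 in which the young ratio was the higher.

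Both lists also had Cyb5a sites of their own. The 4 young-only sites were 18 to 96 bp wide, and 3 of them stood within 2.29 kb, at chr18:85018341-85018436 (enrichment 24.1, q 0.00909), chr18:85019040-85019057 (10.5, q 0.0364) and chr18:85020565-85020627 (11.8, q 0.0284). The third of these was 4769 bp from the nearest old Foxa2 site. The other young-only site, chr18:85039074-85039097, had an enrichment of 55.2 and a q of 0.0449 and lay 1643 bp from an old one. The young-only sites were singled out after their values were seen. Of the 7 old-only sites, the one with the lowest q was chr18:85054393-85054625, with an enrichment of 28.3 and a q of 0.000178, 9198 bp from the nearest young site, also singled out afterwards. The 7 had q-values up to 0.118 and lay 514 to 9198 bp from a young site.

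The Cyp1a2 window was the only one of the 4 in which no Foxa2 site was found at both ages. Its old sites with the lowest q were a pair 251 bp apart. The first, chr9:57571127-57571419, was 293 bp wide, with an enrichment of 19.6 and a q of 1.39e-06, and the second, chr9:57571671-57571886, was 216 bp wide, with an enrichment of 14.7 and a q of 0.000106. They lay 24892 and 24425 bp from the nearest young Foxa2 site. The first had rank 680 by q in the old list, and of the 680 old sites up to and including it, 91.3% overlapped a young site. It was thus among the minority of well-ranked old sites without a young counterpart. With 1 list per age, whether the 2 libraries of an age differed there was not tested.

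The 2 other old Cyp1a2 sites were close to the limit of the list. The sites chr9:57493408-57493462 (enrichment 55.0, q 0.108) and chr9:57494320-57494321 (2 bp wide, enrichment 1363, q 0.12) lay 857 bp apart, and the largest q in the old list was 0.12. The only young site, chr9:57596312-57596329, was 18 bp wide, with an enrichment of 8.97 and a q of 0.0282, close to the young list's median q of 0.0283. It lay 3.67 kb inside the end of the window. The young list had another site 11.9 kb before the window's start, chr9:57448007-57448083 (enrichment 17.0, q 0.00919). The old list had one 10.1 kb past its end, chr9:57610101-57610163 (28.2, q 0.12). Both were picked after their values were seen, to show what the edges left out. Every old site inside the Cyp1a2 window was more than 20 kb from any young Foxa2 site. Over the 4 windows 6 of 30 old sites were, and over the whole old list 58.6%.

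In the Cyp2e1 window each of the 3 young Foxa2 sites lay inside an old one. The site with the lowest old q of all 4 windows was here: chr7:147979530-147979742 had an enrichment of 70.8 and a q of 1.26e-09, and its young counterpart, chr7:147979595-147979718, an enrichment of 21.2 and a q of 0.00022. The young list had its lowest q of all 4 windows at chr7:147907097-147907255, with an enrichment of 23.4 and a q of 7.61e-05, and the old list drew this site at chr7:147907095-147907313, with an enrichment of 39.6 and a q of 1.71e-08. The third pair had a high q at 3 months, at chr7:147942587-147942612 with an enrichment of 4.58 and a q of 0.0635, against 16.8 and 0.00328 for chr7:147942553-147942749 in the old list. The 3 old sites with the lowest q were therefore the 3 that the young list held.

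The 2 old-only sites of the Cyp2e1 window had q-values near the middle of the old list, whose median was 0.044. The site chr7:147893720-147894010 was 291 bp wide, with an enrichment of 4.05 and a q of 0.0434, and lay 13086 bp from the nearest young site. The site chr7:147949373-147949427 was 55 bp wide, with an enrichment of 11.9 and a q of 0.0653, and lay 6760 bp from it. The first of them lay 3.72 kb inside the window. Just outside the other end the old list had chr7:148020867-148020916 (enrichment 17.8, q 0.116) and chr7:148021294-148021435 (32.1, q 0.00672), 0.867 and 1.29 kb beyond the edge. Both are named only to show what the edge left out and were picked after their values were seen.

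The 9 pairs of sites found at both ages were drawn wider in the old list without exception, and the young site lay wholly inside the old one each time. The old width was 1.38 to 70.5 times the young one, with a median of 1.92, where the 2700 overlapping pairs of the whole series had a median of 1.98. Over the series the old site was the wider in 90.9% of pairs and held the young one wholly in 75.5%. The authors' enrichment was higher in the old list in 8 of the 9 pairs, with ratios of 0.884 to 6.98 and a median of 2.85, and in 75.1% of all pairs, with a median of 1.92. The enrichments of the 2 lists may not share a scale, so these ratios do not show a change of binding.

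**Figure D5:**
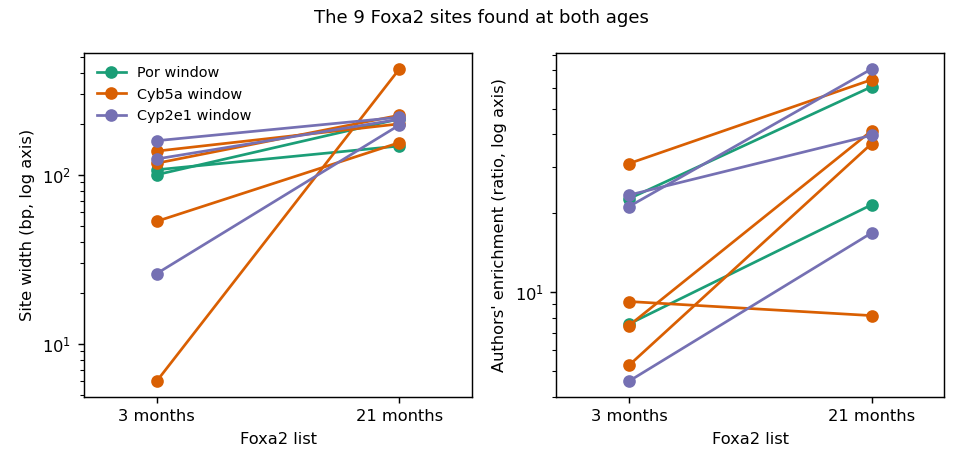
Width in bp (left) and authors' enrichment (right), both on log axes, of the 9 Foxa2 sites found at both ages, each line joining the site as drawn at 3 months and at 21 months. All 9 lines rise in width, and 8 of 9 rise in enrichment, the exception being a Cyb5a site with 9.21 at 3 months and 8.14 at 21 months.

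In other respects the Foxa2 sites of the 4 windows were near their whole list at 21 months. At 3 months they were wider than their whole list and more often had a q of at most 0.01. Old sites had a median width of 105.5 bp against 100.0 bp for the whole old list, and a median enrichment of 27.6 against 22.3. Young sites had a median width of 79.5 bp against 40.0 bp, and a median enrichment of 11.2 against 11.9. Of the young sites 7 of 14 had a q of at most 0.01, where 21.1% of the young list did. Among the old sites it was 11 of 30, where 30.8% of the old list did. These are descriptions of sites in windows picked with results known, and no test was made.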

How the data were processed

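The lists came from 8 ChIP-seq libraries of mouse liver, 2 per protein and age. The submitters' processing notes name BWA and the build mm9. The peak caller, the control and the way libraries were combined are not given in the sources used. The columns are position, enrichment and q-value, per the file headers. The authors computed the enrichment as a ratio (fold) for every site and also the q-value. The q-values reach 0.12 in both deposited Foxa2 lists and 0.2 in both Hdac3 lists. The first position may be 0 or 1 (not stated), and the end was counted as part of a site.

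All sites were used. Ranks are by q, ties by enrichment. The 4 windows and the lists were chosen with earlier results of these data known. Bins of each window's length were laid end to end from the first to the last site of any list on a chromosome. Overlap means at least 1 bp; the 2 Foxa2 counts equalled those of bedtools 2.31.1, and the overlap code was tested on simulated data. In each window and list the text names the site with the lowest q, each Foxa2 site of both ages, each Hdac3 site, and all sites where a list had at most 6; others are said to be picked afterwards. Promoters are RefSeq's, for 3 of 4 genes, without Cyb5a. A list of other P450 and electron transfer genes was not used, as it needed an mm9 annotation. Alternatives were q limits, equal list lengths, moved window edges, joined sites and other overlap rules. Software was Python 3.11.15 with matplotlib 3.10.9, pandas 2.3.3, numpy 2.4.6 and scipy 1.17.1.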

Additional observations from a re-analysis of the deposited data

Results flagged for a closer look

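Between the ages, the site counts of Foxa2 and Hdac3 in the 4 windows went opposite ways: Foxa2 had 16 more sites in the old list (14 at 3 months, 30 at 21 months), and Hdac3 had 4 fewer (4 at 3 months, 0 at 21 months, an old minus young difference of -4). The whole lists at full length differ in the same directions, with 6604 young and 12834 old Foxa2 sites and 5828 young and 2930 old Hdac3 sites. The opposite direction is therefore not particular to the windows. It is given here for this opposite direction. The difference between the proteins was not tested, because there is 1 list for each of them at each age, and the windows were chosen with these counts known. With q held to at most 0.05, Hdac3 had 0 sites in the windows at both ages. At that limit the whole Hdac3 lists held 105 young and 233 old sites, and the whole Foxa2 lists 5685 young and 7059 old sites. Both proteins then had more sites in the old list.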

How the results depend on the processing

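No paired analysis was possible because the 2 libraries of a group share 1 list, and for the same reason no library could be left out. Old minus young Foxa2 sites kept their sign in all windows with edges moved by 20 kb either way and with sites closer than 500 bp joined. For Cyb5a the difference of 3 turned to -1 with q of at most 0.1, -1 at 0.05 and -2 with equal list lengths; these settings remove more old than young sites there. For Por it was 0 at 0.01. The 4 windows held 17 old Foxa2 sites at 0.05 and 17 with equal list lengths; at 0.01 they held 11 old sites over 2581 bp and 7 young ones. Young Hdac3 had 0 sites and 0 bp at 0.05 and at 0.01, and covered 10 bp at 0.1 and 10 bp in windows narrower by 20 kb. With an overlap of at least 50% required in both sites, 5 old and 5 young Foxa2 sites were shared; with centres within 200 bp or edges within 500 bp 1 Hdac3 site matched a Foxa2 site. The other 76 values of the main counts stayed within 1.5 times or kept their sign. Some of these could not change, so their number does not measure stability. Old Hdac3 counts of 0 stay 0 under any stricter limit, and equal list lengths leave the shorter young Foxa2 list as it was. Read depth per library was unknown, so a site missing from a list was not shown to be unbound.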
